A study of Mus musculus with 12 samples.

Results

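The proteasome genes described here are those whose array probes carry a gene name beginning with Psma, Psmb, Psmc, Psmd, Psme or Psmf, without the immunoproteasome genes Psmb8, Psmb9 and Psmb10. The arrays hold 70 such probes, and 64 of them passed the filter, which asks for a signal flagged as clearly above background on each of the 3 arrays of some group. These probes represent 42 genes of the 18179 genes tested, and no gene was lost to the filter. Each gene is represented by its brightest probe on average, and that probe was well above background on all 12 arrays for all 42 genes. The name prefixes also bring in 3 genes that are not part of the general proteasome. They are Psma8, an alpha subunit of the testis, Psmb11, a beta subunit of the thymus, and Psmc3ip, a recombination protein named after its binding to Psmc3. They are kept because the rule keeps them, and are reported as a group of their own.

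Whole hippocampus, from a side the labels do not name, was taken from male C57BL/6N mice aged 12 weeks, and all groups had received 50 nl of 20 mM kainate, a glutamate receptor agonist, in the left dorsal hippocampus. After 3 weeks, when seizures recurred, each mouse was given saline or lipopolysaccharide (LPS, from the outer membrane of Gram-negative bacteria) at 100 µg/kg into the peritoneum. RNA was measured 4 h or 24 h later on one-colour arrays, with 3 arrays in each of the groups saline 4 h, LPS 4 h, saline 24 h and LPS 24 h. Saline mice had also received kainate, so every comparison is within epileptic tissue, and no mouse without kainate is part of the comparisons. The labels state 3 animals per group, which is the only ground for counting the arrays as separate animals.

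The proteasome is the protease complex that degrades proteins tagged with ubiquitin. Its 20S core is a barrel of outer alpha rings and inner beta rings, and the active sites sit on the beta subunits Psmb5, Psmb6 and Psmb7. The 19S cap recognises the tagged protein, removes the ubiquitin and feeds the chain into the core with a ring of ATPases, while other activators, PA28 (Psme1 to Psme3) and PA200 (Psme4), can dock in place of the cap. In immune and inflamed cells interferon raises Psmb8, Psmb9 and Psmb10, which replace the constitutive active subunits, together with Psme1 and Psme2. In neurons the proteasome takes part in the turnover of synaptic proteins.

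Transcription of the constitutive subunits is coordinated by NRF1, the product of Nfe2l1, through antioxidant response elements. Promoter windows from 250 bases before to 50 bases after the gene start, from RefSeq on build GRCm38.p6, were matched for 35 of the 42 genes. The letters TGACNNNGC of that element, searched on both strands, were present in the windows of 6 of the 35 genes (17.1%), against 14.8% of the 17492 protein-coding genes in the promoter table. The sites that lie wholly before the start in members are printed because they show which of the proteasome genes carry these letters, with the match in capitals. Psmc6 and Psmd12 are printed on the strand opposite to the gene.
Psmb5 (chr14:54618025-54618051, gene on the minus strand): gtgaagttgTGACGTCGCggcgttgcc
Psmb6 (chr11:70525339-70525356, gene on the plus strand): taaagagagTGACGGAGC
Psmd9 (chr5:123228150-123228176, gene on the plus strand): tctagccggTGACCCCGCccacttcca
Psmc6 (chr14:45329588-45329614, gene on the plus strand): agcaatgccTGACTTAGCtactggctg
Psmd12 (chr11:107479278-107479298, gene on the plus strand): gggcaaatgTGACACAGCaga
The sixth gene with a match was Psme4. The CCAAT letters read by NF-Y were in 14 of the 35 windows (40%), against 42.3% of protein-coding genes. The letters TTCNNNGAA of a STAT site were in 1 of 35 (2.86%), that of Psmd2, against 8.92%. Among the 3 immunoproteasome genes, the window of Psmb8 held a STAT match, printed because this gene was among those higher at 24 h.
Psmb8 (chr17:34198089-34198115, gene on the plus strand): cctccgctgTTCCCAGAAgatgccccc
A match of letters does not show that a factor binds there.

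Levels below are log2 signals relative to the 75th percentile of the same array, so 0 is that percentile and a difference of 1 is a doubling. Differences are LPS minus saline with the standard error (SE) of a limma fit over all 12 arrays. A gene counts as higher or lower where p, adjusted by Benjamini and Hochberg's method across the 18179 genes, is below 0.05. The arrays lay on 6 slides, and every slide paired 1 saline with 1 LPS array of its time point. The 4 h and 24 h slides were scanned on different days, so time and scan run cannot be told apart. The saline 4 h arrays stood apart in brightness: their 75th percentile was 385 ± 12.4 intensity units (SD, n = 3), whereas LPS 4 h reached 702 ± 35.6, saline 24 h reached 798 ± 61.2 and LPS 24 h reached 864 ± 124. The share of probes well above background was 54.6% to 55.7% in saline 4 h and 58.9% to 71.7% on the other arrays. Markers of hippocampal neurons were measured for 10 of 10 genes. Replicate arrays were close: the SD of the 42 proteasome genes within a group had a median of 0.03 to 0.06.

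The first comparison asks how the proteasome genes differed 4 h after LPS. Most core and cap subunits were lower, and 3 of the 4 activators were higher. Of the 42 genes, 30 (71.4%) were called lower and 4 (9.52%) higher, against 44.5% lower and 29.3% higher among all genes tested. The median difference was -0.28, against -0.15 for all genes. On the arrays themselves 33 genes lay wholly below saline and 4 wholly above, against 46.8% and 30.5% of all genes. On each of the 3 slides 36 genes lay below 0 and 6 above, and these were the same genes on every slide.

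**Figure D1:**
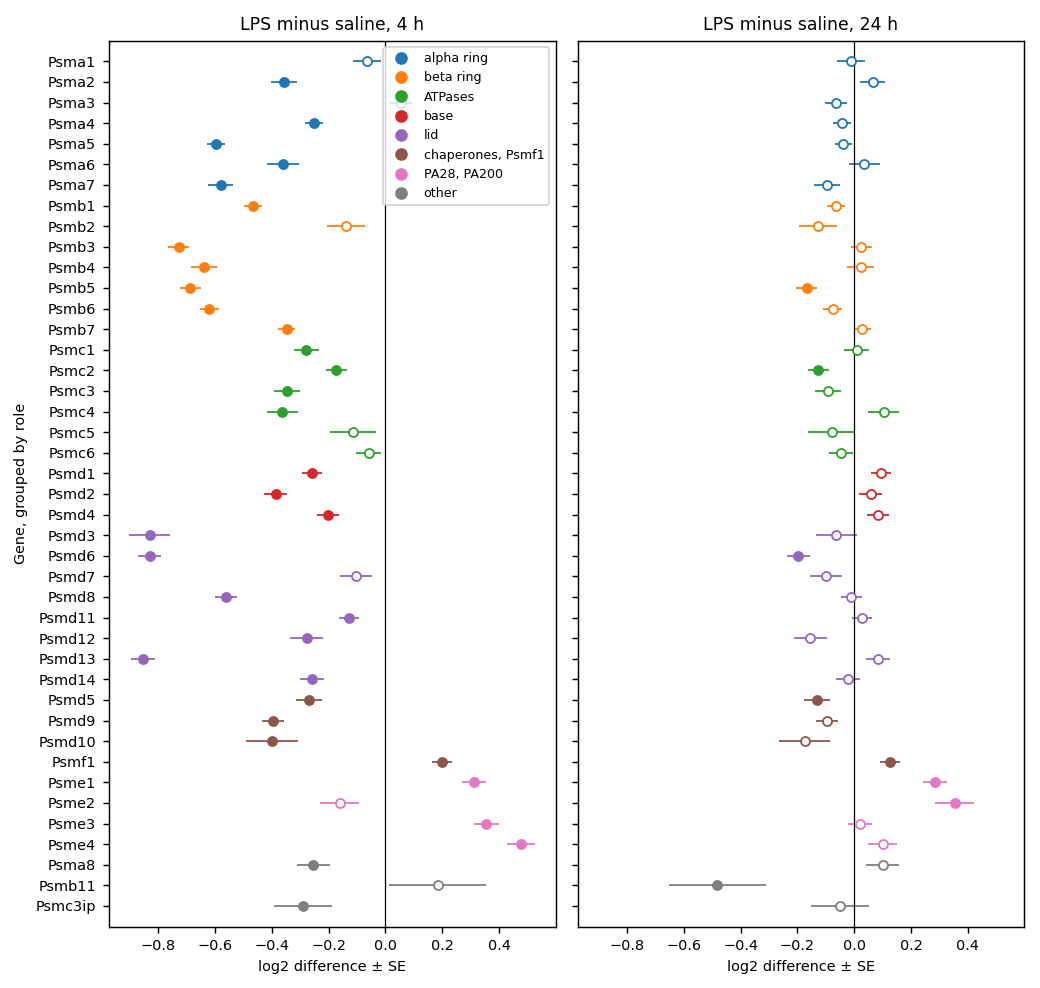
LPS minus saline at 4 h (left) and 24 h (right) for the 42 genes, grouped by role. Points are log2 differences and bars the SE of the fit, filled where the gene was called; nearly all core and cap points lie left of 0 at 4 h, and most points lie close to 0 at 24 h.

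In the beta ring, which holds the active sites, 6 of 7 genes were lower at 4 h, with a median of -0.62. Psmb5, the chymotrypsin-like subunit, read 5.51, 5.54 and 5.55 in saline and 4.80, 4.87 and 4.86 after LPS. All LPS arrays lay below all saline arrays, and the difference was -0.69 ± 0.04 (adjusted p = 6.9e-08). Psmb6, the caspase-like subunit, read 6.55, 6.49 and 6.53 in saline and 5.86, 5.90 and 5.95 after LPS, also without overlap, a difference of -0.62 ± 0.03 (adjusted p = 7.9e-08). Psmb7, the trypsin-like subunit, fell from 3.29, 3.34 and 3.37 to 2.97, 2.97 and 3.02 (-0.35 ± 0.03, adjusted p = 2.5e-06). Of the subunits without an active site, Psmb3 differed by -0.73 ± 0.04, Psmb4 by -0.64 ± 0.05 and Psmb1 by -0.47 ± 0.03, and all of them were called. Psmb2 differed by -0.14 ± 0.07 with overlapping arrays and was not called.

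In the alpha ring, whose tails gate the entry to the core, 5 of 7 genes were lower at 4 h, with a median of -0.36. Psma5 read 6.38, 6.35 and 6.31 in saline and 5.75, 5.76 and 5.75 after LPS (-0.60 ± 0.03, adjusted p = 6e-08). Psma7 differed by -0.58 ± 0.04, and Psma2, Psma6 and Psma4 by -0.36, -0.36 and -0.25. Psma1 differed by -0.07 ± 0.05 and Psma3 by 0.06 ± 0.04, and neither was called.

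The 19S cap showed its largest falls in the lid, the part that holds the deubiquitinase. In the lid 7 of 8 genes were lower, with a median of -0.42. Psmd13 read 1.19, 1.14 and 1.15 in saline and 0.33, 0.31 and 0.28 after LPS. The groups were far apart, and LPS stood at 0.554 of the saline signal (-0.85 ± 0.04, adjusted p = 4.7e-08). Psmd6 read 4.48, 4.48 and 4.50 in saline and 3.66, 3.67 and 3.64 after LPS (-0.83 ± 0.04, adjusted p = 4.3e-08), again with no overlap. Psmd3 differed by -0.83 ± 0.07 and Psmd8 by -0.56 ± 0.04. Psmd14, the deubiquitinase itself, differed by -0.26 ± 0.04 (adjusted p = 0.00031), and Psmd12 and Psmd11 by -0.28 and -0.13. Psmd7, its partner, differed by -0.10 ± 0.06 and was not called.

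The base of the cap had differences nearer to 0. Of the 6 ATPases, which unfold the substrate, 4 were lower, with a median of -0.23 over the ring: Psmc4 by -0.36, Psmc3 by -0.35, Psmc1 by -0.28 and Psmc2 by -0.17. Psmc5 (-0.11 ± 0.08) and Psmc6 (-0.06 ± 0.04) were not called. The scaffold genes Psmd2 (-0.39 ± 0.04) and Psmd1 (-0.26 ± 0.03) were lower, as was the ubiquitin receptor Psmd4 (-0.20 ± 0.04, adjusted p = 0.00091). The chaperones that assemble the base were lower as well: Psmd10 by -0.40 ± 0.09, Psmd9 by -0.39 ± 0.04 and Psmd5 by -0.27 ± 0.05.

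Of the 4 activators 3 went the other way at 4 h. Psme4, which encodes PA200, read 3.11, 3.09 and 3.03 in saline and 3.52, 3.56 and 3.59 after LPS, a difference of 0.48 ± 0.05 (adjusted p = 1.1e-05). Psme3, the nuclear PA28 gamma subunit, read -0.86, -0.91 and -0.90 in saline and -0.55, -0.54 and -0.52 after LPS (0.36 ± 0.04, adjusted p = 2.9e-05). Psme1, the PA28 alpha subunit, read 3.89, 3.87 and 3.88 in saline and 4.16, 4.19 and 4.23 after LPS (0.31 ± 0.04, adjusted p = 7.1e-05). In these 3 genes every LPS array was above every saline array. Psme2, the PA28 beta subunit that pairs with Psme1, read 4.97, 5.15 and 5.19 in saline and 4.95, 4.97 and 4.90 after LPS. Its groups overlapped, and the difference of -0.16 ± 0.07 was not called (adjusted p = 0.057). The fourth gene called higher was Psmf1, which encodes the inhibitor PI31, with a difference of 0.20 ± 0.03 (adjusted p = 0.00043), a call lost with normexp, median scaling and the deposited table. Among the genes brought in by the prefix, Psmc3ip (-0.29 ± 0.10, adjusted p = 0.025) and Psma8 (-0.25 ± 0.06) were lower, and Psmb11 differed by 0.18 ± 0.17 and was not called.

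**Figure D2:**
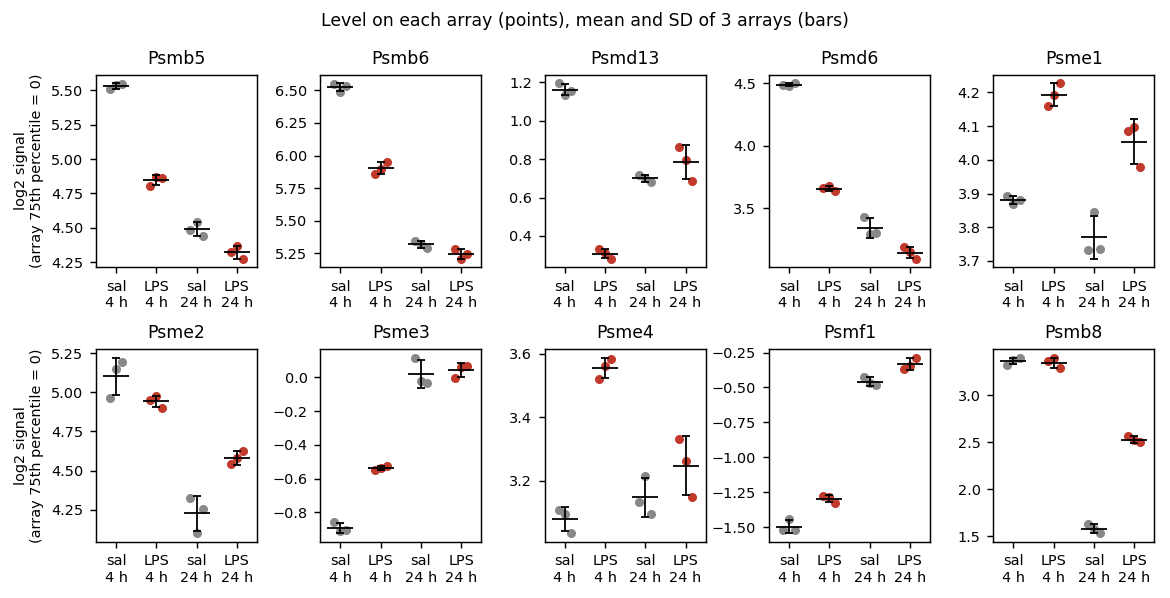
Level of 10 genes on each of the 12 arrays, as log2 signal relative to the array's 75th percentile; points are arrays, horizontal bars means and vertical bars SDs of 3 arrays (sal, saline). Psmb5, Psmb6 and Psmd6 were highest in saline 4 h, Psme1 and Psme4 were higher with LPS at 4 h, and Psmb8 and Psme2 were lowest in saline 24 h.

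The size of the fall at 4 h depended on how the arrays were scaled. Under quantile normalization 17 genes were lower and 10 higher, with a median of -0.064 against -0.070 for all genes, of which 39.3% were lower and 31.7% higher. The deposited log2 table had 14 lower and 9 higher, against 37.0% and 28.5% of all genes. With each array's median in place of the 75th percentile 36 were lower and 3 higher, against 54.2% and 21.5%. Under all 5 ways of making the values (75th percentile, normexp background, median, quantile, deposited table) 11 genes were lower and 3 higher. How many of all genes held under all 5 was not counted. The 11 were Psmb3, Psmb4, Psmb5, Psmb6, Psma5, Psma7, Psmd6, Psmd8, Psmd13, Psmd9 and Psmd10, and the 3 were Psme1, Psme3 and Psme4. Psmd13 kept nearly its whole fall under quantile normalization (-0.79), whereas Psmd3 went from -0.83 to -0.18, Psmb3 from -0.73 to -0.22, Psmb5 from -0.69 to -0.28 and Psmb6 from -0.62 to -0.10. The ATPase Psmc2 and the lid gene Psmd11, lower above, were called higher under quantile normalization (0.22 and 0.18) and in the deposited table (0.21 and 0.17). Under quantile normalization the falls of Psmc1, Psmd12, Psma2, Psma6, Psmd4 and Psmd14 turned to values from 0.037 to 0.094 that were not called. In the ATPases the median of the role turned from -0.23 to 0.10, and in the alpha ring from -0.36 to 0.04. Psme1 and Psme4 rose more under quantile normalization, to 0.57 and 0.69. Psme2 turned to 0.23 and was called higher, so that all 4 activators were then higher.

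**Figure D3:**
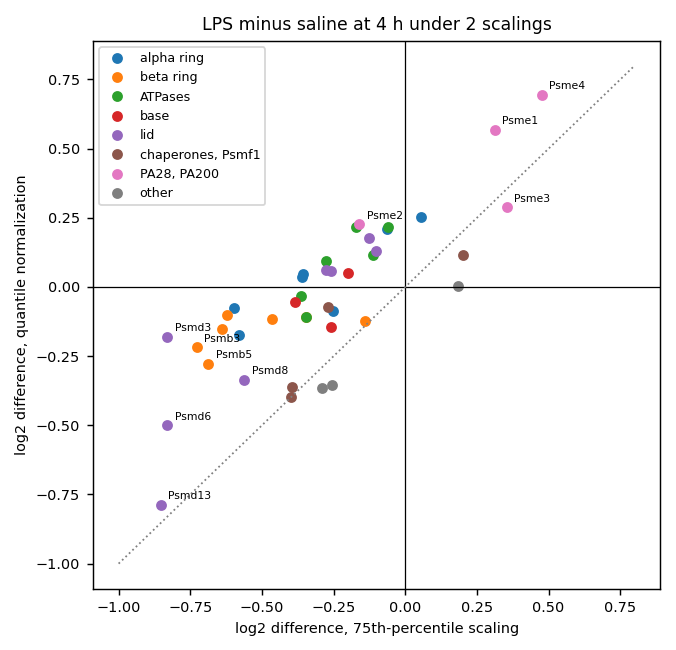
LPS minus saline at 4 h for the 42 genes with 75th-percentile scaling (x axis) and quantile normalization (y axis), both as log2 differences, coloured by role; the dotted line marks equal values. Most core and cap genes lie above the line, Psmd13 lies close to it, and the 4 activators are above 0 on the y axis.

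The fall also went with the brightness of the probe. Of the 42 proteasome probes 30 were in the brightest 20% of all genes, and their median percentile was 91.0. In that bin 22 of 30 proteasome genes (73.3%) were lower at 4 h with a median of -0.35, against 69.9% of all genes in it with a median of -0.37. In the middle bin of 5 equal bins of signal all genes had a median of -0.04 and the 6 proteasome genes -0.22. Over the 42 genes the difference at 4 h correlated with the mean signal with a Pearson r of -0.41 (Spearman -0.44, a description over genes that share arrays), against -0.14 over all genes. As a group, bright proteasome genes were thus lower about as often as other bright genes. Within that bin the lowest members were Psmd6 at -0.83, Psmd3 at -0.83 and Psmb3 at -0.73. The 5th percentile of all genes tested was -0.98, and the spread within the bin is not given. The part of array brightness in these values was not tested.

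**Figure D4:**
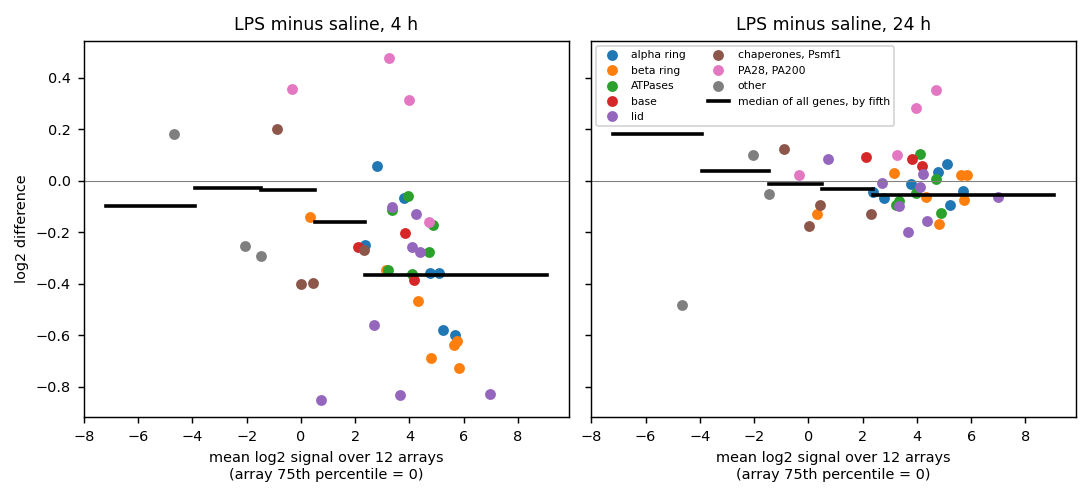
LPS minus saline (log2 difference) against mean log2 signal for the 42 genes at 4 h (left) and 24 h (right), coloured by role; black lines give the median of all genes in each of 5 equal bins of signal. At 4 h the line drops to -0.37 in the brightest bin, where 30 of the 42 genes lie; at 24 h it ends at -0.05.

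The 4 h calls rest on the saline 4 h arrays. The saline 24 h arrays were scanned on another day, so a comparison with them mixes LPS with time and scan run. Set against the saline 24 h arrays instead, LPS 4 h was higher in 22 of the 42 genes and lower in 11, with a median of 0.13, against 41.5% higher, 31.6% lower and a median of 0.058 among all genes. Psmb5 was then higher by 0.36, Psmb6 by 0.58, Psmd6 by 0.31 and Psmd3 by 0.60, and Psme3 was lower (-0.56). The calls that held both with these controls and under the 5 ways of making the values were those of 4 genes, a share not counted for all genes. They were Psme1 (0.42) and Psme4 (0.41), both higher, and Psmd13 (-0.39) and Psmd10 (-0.60), both lower. On the 3 slides with saline 4 h arrays Psmd13 differed by -0.80, -0.84 and -0.91, Psmd10 by -0.34, -0.48 and -0.38, Psme4 by 0.43, 0.53 and 0.48 and Psme1 by 0.29, 0.31 and 0.33. Psmd10 encodes gankyrin, a chaperone of the ATPase ring.

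Markers of other tissue moved between the same arrays. All 4 measured pituitary genes were lower at 4 h after LPS (median -3.38), with a summed log2 level of 2.52 to 2.57 in saline and 1.30 to 1.38 after LPS. Of 7 thalamus genes 4 were lower and 2 higher, with summed levels of 4.59 to 4.63 and 4.02 to 4.04. Of 6 microglia genes 4 were lower and 1 higher, with summed levels of 7.65 to 7.71 and 7.21 to 7.29. Of 6 astrocyte genes 3 were lower and 2 higher, with summed levels of 7.73 to 7.78 and 7.17 to 7.22. Of 6 endothelial genes 5 were lower and 1 higher (5.58 to 5.61 and 4.17 to 4.20), and all 4 measured red blood cell genes were lower (8.15 to 8.18 and 6.82 to 6.88). Of 5 measured genes of neutrophils and monocytes 4 were higher, with summed levels of 4.46 to 4.47 in saline and 4.82 to 4.86 after LPS. Of 10 hippocampal neuron genes 7 were higher and 1 lower, while their summed level was 7.28 to 7.31 in saline and 6.48 to 6.51 after LPS. Their part in the proteasome values was not tested, and fewer cells of a type and less RNA per cell cannot be told apart in whole tissue.

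The second comparison asks what was left at 24 h. Few core and cap genes were called, and both subunits of the PA28 alpha-beta ring were higher. Of the 42 genes 3 (7.14%) were higher and 5 (11.9%) lower, against 23.3% higher and 22.8% lower among all genes. The median was -0.03 against 0.0028 for all genes, and 21 of the 42 differed in sign between slides. The LPS arrays lay wholly above saline for 4 genes and wholly below for 10, against 28.4% and 26.6% of all genes. The count depended on the scaling: with each array's median 2 genes were higher and 19 lower, and with normexp background correction 1 was higher and 0 lower by limma (3 and 2 at an unadjusted p under 0.05). The shares of all genes under those scalings are not printed beside these counts. The counts therefore do not set the members apart from other genes.

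Psme2 read 4.33, 4.10 and 4.25 in saline and 4.54, 4.58 and 4.62 after LPS at 24 h. All LPS arrays were above all saline arrays, and the difference was 0.35 ± 0.07 (adjusted p = 0.0021). It was the 1 member called under all 5 ways of making the values, from 0.25 to 0.41. Against the saline 4 h arrays it was lower (-0.52). Its partner Psme1 read 3.73, 3.84 and 3.74 in saline and 4.09, 4.10 and 3.98 after LPS, also without overlap (0.28 ± 0.04, adjusted p = 0.00043). Psme1 was also higher against the saline 4 h arrays (0.17), and under the 5 ways of making the values it ran from 0.18 to 0.35, missing the threshold with normexp (adjusted p = 0.055 in limma). Psmf1 was higher by 0.12 ± 0.03 (adjusted p = 0.015), but was not called with normexp, median scaling or the deposited table. Psme4 (0.10 ± 0.05) and Psme3 (0.02 ± 0.04) were not called.

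The falls at 24 h were small. Psmd6 read between 3.3 and 3.4 in saline and between 3.1 and 3.2 after LPS (-0.20 ± 0.04, adjusted p = 0.0031). Psmb5 read 4.48, 4.54 and 4.44 in saline and 4.32, 4.37 and 4.28 after LPS (-0.17 ± 0.04, adjusted p = 0.004). The groups did not overlap in either gene. Psmc2 (-0.13), Psmd5 (-0.13) and the thymic Psmb11 (-0.48 ± 0.17, adjusted p = 0.042) completed the list, and Psmb11 is also the dimmest of the 42 probes. In the alpha ring 0 of 7 genes were called by limma, also at an unadjusted p under 0.05, and the differences ran from -0.10 to 0.06. With the chosen probes Psmd4 (0.08 ± 0.04) and Psmd14 (-0.02 ± 0.04) were not called, though another probe of each was (0.42 and -0.18). Psmb6 (-0.08 ± 0.03) and Psmb7 (0.03 ± 0.03) were not called either.

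The immunoproteasome genes, which the rule leaves out, are the direct counterpart of Psmb5, Psmb6 and Psmb7. At 24 h all 3 were higher. Psmb8, the counterpart of Psmb5, read 1.63, 1.57 and 1.54 in saline and 2.56, 2.52 and 2.50 after LPS, which is 1.93 times the saline signal (0.95 ± 0.04, adjusted p = 5.3e-08). Psmb9, the counterpart of Psmb6, read 0.86, 0.88 and 0.85 in saline and 1.98, 1.91 and 1.75 after LPS (1.02 ± 0.05, adjusted p = 2.7e-07). Psmb10, the counterpart of Psmb7, rose by 0.23 ± 0.03 (adjusted p = 0.00011), a call lost with normexp (adjusted p = 0.072 in limma). At 4 h Psmb8 (-0.02 ± 0.04) and Psmb9 (-0.09 ± 0.05) were not called and Psmb10 was lower (-0.38 ± 0.03), while under quantile normalization Psmb8 was higher (0.21) and Psmb10 lay at 0.02. In saline mice these genes were much brighter at 4 h than at 24 h: Psmb8 read 3.32, 3.37 and 3.39 in saline 4 h. Against those arrays the LPS 24 h arrays were lower in Psmb8 (-0.84), Psmb9 (-0.68) and Psmb10 (-0.91). Markers of immune cells and of other tissue moved between the 24 h arrays as well. Of 6 microglia genes 5 were higher after LPS and 1 lower, with summed levels of 6.14 to 6.25 in saline and 6.55 to 6.60 after LPS. All 5 measured genes of neutrophils and monocytes were higher, with summed levels of 3.4 to 3.5 and 4.5 to 4.6. Higher were also 5 of 6 endothelial, 6 of 7 thalamus and 3 of 5 measured choroid plexus genes, while 5 of 7 general neuronal genes, 6 of 10 hippocampal neuron genes and all 4 measured red blood cell genes were lower. Of the 10 hippocampal neuron genes 1 was higher, and their summed level was 6.17 to 6.19 in saline and 6.18 to 6.20 after LPS. The part of these markers in the 24 h values was not tested.

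The response to LPS differed between the times. The LPS-minus-saline value was larger at 24 h than at 4 h in 26 genes (61.9%) and smaller in 3 (7.14%), against 42.5% and 26.4% of all genes, with a median of 0.29 against 0.19. In the brightest 20% of all genes lie 30 of the members. There this value was larger at 24 h in 62.2% of all genes and 70% of the members. The value is signed, and in most core and cap genes a larger value goes with a fall at 4 h and a difference near 0 at 24 h. Psmd13 had the largest upward change (0.94 ± 0.06, adjusted p = 4.4e-07 in limma), from -0.85 at 4 h to 0.08 at 24 h. Next were Psmd3 (0.77), Psmb3 (0.75), Psmb4 (0.66) and Psmd6 (0.63). The response of Psme4 was smaller at 24 h by -0.38 ± 0.07 (adjusted p = 0.00086) and that of Psme3 by -0.33 ± 0.06, while that of Psme2 was larger by 0.51 ± 0.10. The thymic Psmb11 also had a smaller value at 24 h (-0.66 ± 0.24). For Psme1 the responses were 0.31 and 0.28, and their difference of -0.03 ± 0.06 was not called (adjusted p = 0.68). Under quantile normalization 14 genes had a larger and 7 a smaller value at 24 h, and the deposited table gave 8 of each. The shares of all genes under these scalings are not printed here, so these counts do not set the members apart from other genes. Under all 5 ways of making the values 6 genes kept a larger value at 24 h (Psmb3, Psmb4, Psmd13, Psmd6, Psmd8 and Psmd9) and 2 a smaller one (Psme3 and Psme4). How many of all genes did so was not counted.

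The saline arrays of the 2 times, which these comparisons share as controls, also differed from each other. Of the 42 genes 30 were lower in saline 24 h than in saline 4 h and 6 higher, against 48.5% lower and 32.3% higher of all genes, with a median of -0.39 against -0.16. In the brightest 20% the lower share was 74.2% of all genes and 80% of members. Psmd3 read 7.88, 7.93 and 7.94 in saline 4 h and 6.49, 6.58 and 6.39 in saline 24 h (-1.43 ± 0.07). Psmb3 (-1.23), Psmb6 (-1.21), Psmd6 (-1.14) and Psmb5 (-1.04) were lower, and Psmf1 (1.04), Psme3 (0.91), Psmd1 (0.35), Psma4 (0.21) and Psmc6 (0.13) higher. Under quantile normalization 18 genes were lower and 19 higher, and the median turned from -0.39 to 0.071. Shares of all genes under that scaling are not printed here, so these counts do not set the members apart from other genes. Between the same saline arrays 5 of 6 microglia genes (median -0.82) and all 4 measured pituitary genes (-2.04) were lower. Of 6 astrocyte genes 4 were lower and 2 higher (-0.85), and of 7 thalamus genes 4 were lower and 2 higher (-0.85). Of 10 hippocampal neuron genes 7 were higher and 2 lower. Their summed level was 7.28 to 7.31 in saline 4 h and 6.17 to 6.19 in saline 24 h. The part of these markers in the proteasome values was not tested. Time after saline and scan run cannot be told apart here.

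Where a gene has several probes, they did not always move together. Of all 27683 probes 31.6% were higher at 4 h and 39.4% lower, and at 24 h 20.8% were higher and 20.9% lower. At 4 h 4 of the 18 proteasome genes with several measured probes had probes called in opposite directions, against 17.2% of the 6777 such genes in all. The dominant probe of Psma7 differed by -0.58 and a second by 0.33; that second probe is annotated to another transcript. For Psmc2 the dominant probe differed by -0.17 and a probe on another transcript by 1.53. That other probe had an SE of 0.25 and was well above background on 10 of the 12 arrays. For Psmd7 the probes gave -0.10, -0.34 and 0.47, and for Psmf1 0.20, -0.55 and -0.16. The rise of Psmf1 at 4 h thus holds for 1 of 3 probes. Before scaling, the probes with a rise in Psma7, Psmc2 and Psmd7 were dim, with mean log2 signals of 5.85, 5.11 and 6.01. The chosen probes of these genes had 14.5, 14.2 and 12.6. In Psmf1 the probes at 0.20 and -0.55 had 8.39 and 8.17. The probes of Psme4 gave 0.48, 0.34 and 0.17, all upward though the last was not called. At 24 h 0 of 18 genes had opposite calls by limma at the adjusted threshold, against 3.1% of all such genes. Both Psme2 probes were higher, by 0.35 and 0.37. For Psme4 a second probe was higher at 24 h (0.33), unlike the one chosen. A second probe was also called at 24 h, where the chosen one was not, in Psmd4 (0.42), Psmd2 (0.16), Psmd14 (-0.18), Psmd12 (-0.23), Psmc6 (-0.25) and Psmc3ip (-0.27). At 4 h the same held for Psmc5 (-0.33) and Psma3 (0.40). The called second probes of Psma3 and Psmd4 were dim as well, at 6.36 and 5.90 against 12.1 and 13.1 for the chosen ones.

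Genes that work with the proteasome were measured alongside, and their counts at 4 h stand beside 44.5% lower and 29.3% higher among all genes. The 24 h counts stand beside 22.8% lower and 23.3% higher. All 5 measured chaperones of 20S assembly were lower at 4 h. Psmg4 differed by -0.98, Psmg1 by -0.63, Psmg3 by -0.53 and Pomp, the maturation factor of the beta ring, by -0.40 ± 0.04. Pomp turned to 0.06 under quantile normalization. At 24 h 3 of the 5 were lower and 1, Pomp, was higher (0.16 ± 0.04, adjusted p = 0.0064), though not with normexp or with median scaling (0.056). Nfe2l1, which encodes NRF1, was lower at 4 h (-0.56 ± 0.04, adjusted p = 3.7e-07) and at 24 h (-0.14 ± 0.04, adjusted p = 0.013), the latter call being lost with normexp. Its list of 4 measured genes also holds Nfe2l2, the gene of the transcription factor NRF2, and enzymes that process NRF1. Of these 4 genes 3 were lower at 4 h. At 24 h 2 were lower and 1 higher, the last being Nfe2l2 (0.37 ± 0.05). Among ubiquitin and its activating enzymes 4 of 6 were lower at 4 h, with Ubb at -0.58, and 2 were higher, Uba6 at 1.07 and Uba1 at 0.27, the latter named after its value was seen. At 24 h 1 of the 6 was lower, Uba6 at -0.15. Of 9 measured shuttle and segregase genes 6 were lower at 4 h, with Nploc4 at -0.76, Rad23b at -0.57, Nsfl1c at -0.51 and Ubqln2 at -0.39. In the same list 2 were higher. At 24 h 2 of the 9 were lower and 1 higher. Of 6 measured proteasome components under other names, 1 was higher at 4 h, the deubiquitinase Usp14 at 0.13. In that list 2 were lower, Ube3c at -0.39 and Uchl5 at -0.17. At 24 h these 3 were lower.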

How the data were processed

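Hippocampal RNA of 12 mice was hybridised to one-colour Agilent arrays. The deposited intensity values had their background subtracted by Agilent's Feature Extraction software, version 10.7.3.1 per the file headers and 9.1 in the submitters' processing notes, with no scaling across arrays. The deposited table of log2 values by the authors has column medians of 6.98 to 6.99; how it was made is not given in the sources used here, and quantile normalization after normexp differed from it by up to 0.126. Processed signals were taken as log2, spots of a probe averaged, and each array's 75th percentile subtracted. Probes well above background on 3 of 3 arrays of any group entered (27683 of 41174). Probe names are those of the 4 h files, and 3 member probes carry another name in the 24 h files. Positions in the text are from GRCm38.p6. Group means were fitted with limma 3.58.1 in R 4.3.3, two-sided, Benjamini-Hochberg over 18179 genes, and the fit was tested on simulated data. Genes were named by a rule: for LPS against saline up to 8 called members in each direction by size, up to 5 for the other comparisons, a list always named, members where their role is counted, and up to 4 genes per pathway list, some of which are not reported here. Members, lists and alternatives were chosen with earlier results of these data known. At 4 h arrays of equal number lay on different slides, with correlations of their deviations from -0.16 to 0.19. At 24 h equal numbers shared a slide, with correlations of 0.073, 0.104 and 0.098, not all above the 0.1 asked for pairing, and the fit has no block. p-values measure the spread between these arrays. The number of arrays limits the precision.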

Additional observations from a re-analysis of the deposited data

Results flagged for a closer look

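The LPS-minus-saline value differed between 24 h and 4 h, by the test of that difference in limma, in 29 of the 42 proteasome genes, 26 larger and 3 smaller, against 42.5% larger and 26.4% smaller among all genes. Under all 5 ways of making the values 6 stayed larger and 2 smaller, a share not counted for all genes. Among the named core genes the change was 0.75 in Psmb3, 0.66 in Psmb4, 0.54 in Psmb6, 0.52 in Psmb5 and 0.38 in Psmb7. In the cap it was 0.94 in Psmd13, 0.77 in Psmd3, 0.63 in Psmd6, 0.29 in Psmd4 and 0.24 in Psmd14. The activators went both ways, with 0.51 in Psme2, -0.33 in Psme3 and -0.38 in Psme4, and Psmb11 gave -0.66. Outside the members it was 1.10 in Psmb9, 0.96 in Psmb8, 0.61 in Psmb10, 0.56 in Pomp and 0.42 in Nfe2l1.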

How the results depend on the processing

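The scaling mattered most. With quantile normalization 10 members were higher and 17 lower at 4 h (median -0.064), and 7 were higher at 24 h. The LPS-minus-saline value was larger at 24 h than at 4 h in 14 and smaller in 7 (0.075), and 19 were higher and 18 lower in saline 24 h against saline 4 h (0.071). In the deposited log2 table these counts were 9 and 14 (-0.073), 2 lower at 24 h, 8 and 8 (0.069), and 16 and 17 (0.067). With median scaling the median was -0.45 at 4 h and -0.13 at 24 h with 19 lower, and -0.57 between the saline groups with 3 higher. With normexp the median was -0.25 at 4 h, and 1 was higher and 0 lower at 24 h by limma. The LPS-minus-saline value was larger at 24 h than at 4 h in 16, and the saline median was -0.32. With the mean of a gene's probes 5 had a smaller LPS-minus-saline value at 24 h than at 4 h, and the saline median was -0.28. The count lower at 24 h was 3 without a filter, 2 at an adjusted p under 0.01 and 2 when only the groups compared were fitted. With the slide as a block 5 were higher at 24 h. With the saline arrays of the other time as controls, 22 members rose and 11 fell at 4 h (0.13). At 24 h 7 rose and 30 fell with these controls (-0.38), against 34.3% and 46.7% of all genes, whose median was -0.11. The share of bright genes that fell under this setting is not given. The cause was not tested, and most of these counts stand without the shares of all genes under the same setting.

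At 4 h arrays of equal number share only a number, and at 24 h they also share a slide. With the replicate number as a block 3 members were lower at 24 h in place of 5, and 30 were lower and 4 higher at 4 h. Leaving out each array in turn gave 4 higher and 29 to 31 lower at 4 h (median -0.29 to -0.27), and 3 to 6 higher and 3 to 5 lower at 24 h (-0.04 to 0.0031). It gave 26 to 28 larger and 2 to 3 smaller LPS-minus-saline values at 24 h than at 4 h (0.27 to 0.30), and 5 to 6 higher and 29 to 30 lower between the saline groups (-0.41 to -0.37). At 24 h the counts turned on LPS replicate 3, without which 6 were higher, and on saline replicate 3 and LPS replicate 2, without each of which 3 were lower.

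Named genes also changed sign. With quantile normalization the values at 4 h were 0.21 for Psmb8, 0.020 for Psmb10, 0.23 for Psme2, 0.051 for Psmd4, 0.057 for Psmd14 and 0.061 for Pomp. Under that scaling they were also 0.22 for Psmc2, 0.18 for Psmd11, 0.094 for Psmc1, 0.062 for Psmd12, 0.047 for Psma2 and 0.037 for Psma6. The differences of response were -0.036 for Psmd14 and -0.0038 for Nfe2l1, and the saline values 0.18 for Psmb7, 0.36 for Psme1, 0.29 for Psmd14 and 0.37 for Pomp. In the deposited table the 4 h values were 0.17 for Psmb8, 0.0081 for Psmb10, 0.22 for Psme2, 0.084 for Psmd4, 0.049 for Psmd14 and 0.039 for Pomp. The response of Psmd14 was -0.052 there, and the saline values were 0.15 for Psmb7, 0.39 for Psme1, 0.28 for Psmd14 and 0.28 for Pomp. The saline value was 0.019 for Psme1 with normexp and -0.049 for Psmc6 with median scaling. With the mean of the probes Psmf1 was -0.17 and Psmd4 0.0058 at 4 h, and the response of Psmf1 was 0.21. With the saline arrays of the other time the 4 h values were -0.56 for Psme3, -0.84 for Psmf1, 0.31 for Psmd6, 0.60 for Psmd3, 0.50 for Psmb3, 0.36 for Psmb5, 0.31 for Psmb4, 0.58 for Psmb6 and 0.41 for Psma5. They were 1.77 for Psmb8, 1.61 for Psmb9, 0.76 for Psmb10, 0.71 for Psme2, 0.0016 for Psmd14, 0.30 for Psmc3ip, 0.014 for Pomp and 0.41 for Nfe2l1. At 24 h they were -0.52 for Psme2, -0.19 for Psmb7, -0.84 for Psmb8, -0.68 for Psmb9, -0.91 for Psmb10 and -0.26 for Pomp. All 42 member probes were well above background on every array, so signal over background does not limit which members were measured, but Psmb11 was dim and its spread wide.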
